A study of Drosophila melanogaster with 17 samples.

Results

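The genes described here are the classical eye colour genes white (w), scarlet (st), brown (bw), vermilion (v), cinnabar (cn), cardinal (cd), Punch (Pu), purple (pr), sepia (se) and rosy (ry) of the fruit fly Drosophila melanogaster. They were taken by FlyBase symbol and identifier, which gives 10 genes among the 23925 features listed in the head and gut tables together, and all 10 were in both tables. A filter on low counts was passed by 9 of them in heads and in guts, and cn did not pass in either tissue.

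Fly eyes are coloured by brown ommochromes, which are made from tryptophan, and by red pteridines, which are made from GTP, and both are stored in granules of the pigment cells. White pairs with Scarlet to carry ommochrome precursors into the granules and with Brown to carry pteridine precursors. The same proteins also work outside the eye, in the Malpighian tubules and the fat body, and the first pteridine enzymes supply the tetrahydrobiopterin cofactor that aromatic amino acid hydroxylases need.

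Polyadenylated RNA was read from 17 libraries of mated males that were kept with 20 flies per vial at 25 °C, 60% humidity and 12 h of light, and were taken 8 h after lights on (ZT8). Heads came from w1118 flies, which carry a deletion in w, and from orco2 flies, which carry a mutant odorant co-receptor gene, aged 3 or 40 days, and each of these 4 groups had 2 libraries. The 3 gut groups were w1118, orco2 and per01 at day 40, each with 3 libraries, and per01 is a loss-of-function allele of the clock gene period. Nothing says that libraries of a group came from separate cultures, so a p-value speaks only of the spread among libraries, and that spread may be technical. The labels do not give the w allele of the orco2 and per01 stocks. The orco2 allele is known to have been made with a w marker gene, and counts per gene do not tell reads of such a copy from those of the native gene. The labels name no driver transgene in any group, and the same w1118 libraries serve as controls for both gut mutants.

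Total counts ran from 27082849 to 33932201 per head library and from 25792664 to 41693684 per gut library. Orco, the mutated gene in orco2, had 205 and 251 counts in the w1118 heads of day 3 against 45 and 46 in the orco2 heads of that day, which follows the labels. Levels are in CPM (counts per 1e+06 counts after TMM scaling), differences are log2 fold changes ± SE from edgeR's quasi-likelihood test, and a gene rose or fell when its Benjamini-Hochberg adjusted p over all genes tested was under 0.05. Intervals on ratios of counts are exact at 95% and cover counting error only.

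In heads, enzyme genes at different steps of the pigment pathways moved in opposite directions, and of the partner transporters bw was called in 2 comparisons and st in none. In orco2 against w1118 heads at day 3, w and v rose and Pu and se fell, which is 2 of 9 tested members in each direction, where 4.85% of all genes tested rose and 2.43% fell. At day 40 the orco2 heads had w, v and ry higher and bw and se lower, where 8.06% of all genes rose and 4.89% fell. From day 3 to day 40 in w1118 heads, w, bw, v and ry rose and pr, Pu and se fell, where 8.56% rose and 7.23% fell. There w had 1 read at day 3 and 21 at day 40, and it passed the count filter only through the orco2 heads. In orco2 heads over the same time v and ry rose and Pu and se fell, where 12.8% rose and 11.4% fell. The median difference over the 9 members was -0.05, -0.26, 0.62 and 0.11 in these comparisons, against 0.01, -0.00, 0.04 and -0.01 over all genes tested. These comparisons share groups, so they do not count as separate evidence for one another. The w1118 strain carries a deletion in w, so the rises of w in orco2 against w1118 heads check the labels. They are not to be weighed against the shares of all genes.

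**Figure D1:**
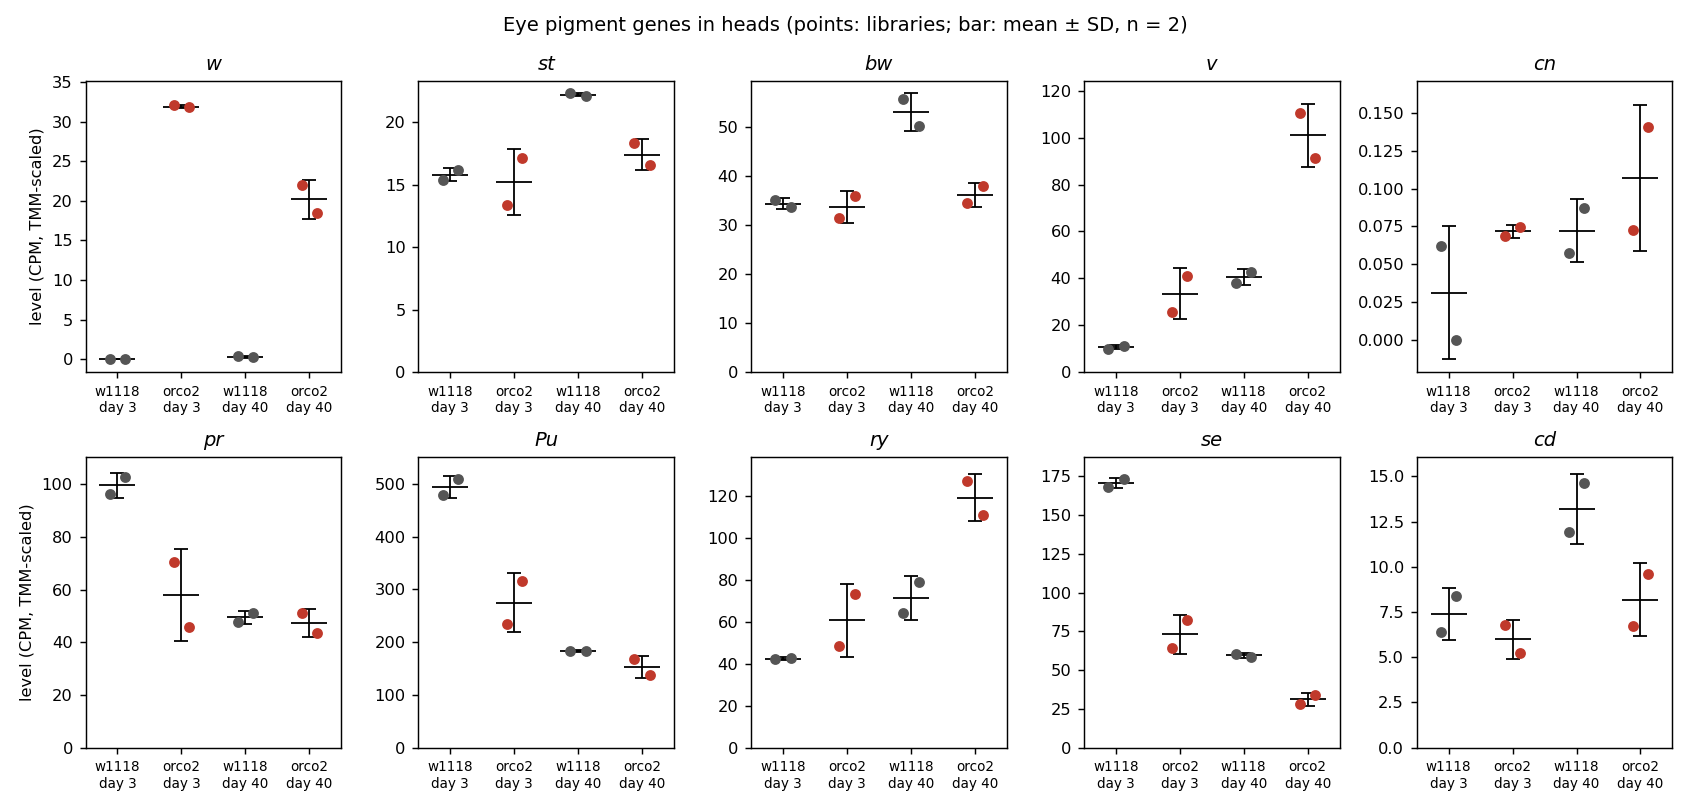
Levels of the 10 eye pigment genes in heads (CPM, linear axis, each panel with its own scale). Points are libraries and bars are the mean ± SD of 2 libraries per group. In w the day 3 w1118 libraries lie at 0.0311 and 0 CPM and those of orco2 at 32.1 and 31.8, while in se all groups fall in the order day 3 w1118, day 3 orco2, day 40 w1118 and day 40 orco2.

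The white gene (FBgn0003996, chromosome X, 2790599 to 2796466, minus strand, BDGP6) lies within the span of kirre on the opposite strand and shares no exon with it. In day 3 heads w was read at 0.0311 and 0 CPM in w1118, which is a single read in all, and at 32.1 and 31.8 CPM in orco2. At day 40 the levels were 0.375 and 0.232 CPM in w1118 and 22.0 and 18.5 CPM in orco2. Every orco2 head library was thus above every w1118 head library, and the groups did not overlap at either age. The orco2 to w1118 ratio was 2086 at day 3 (exact interval 374 to 82433) and 66.6 at day 40 (43.4 to 108). The differences were 10.69 ± 0.42 and 6.04 ± 0.29, and the adjusted p-values by edgeR were 1.83e-05 and 6.40e-05. The first difference rests on a single w1118 read, and its SE understates the error that the interval on its ratio shows.

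Between the ages, w moved up from nearly no counts in w1118, from 1 read in all to 21, a ratio of 19.8 with an interval of 3.19 to 819.6 (difference 3.99 ± 0.68, adjusted p = 0.00778). In orco2 heads the ratio was 0.633 (0.587 to 0.682), a difference of -0.66 ± 0.21 that missed the threshold (adjusted p = 0.0549). The 2 day 40 libraries were above both day 3 libraries in w1118 and below both in orco2. The rise in w1118 lost its call under limma-voom, with an adjusted p of 0.0728. Its SE also understates the error, as the interval on its ratio shows. The w1118 libraries held 1 and 0 counts of w at day 3 and 13 and 8 at day 40. In the head fit w therefore passed the count filter only through the orco2 heads. With the libraries of the 2 w1118 groups alone the filter did not keep w, so no call was possible there. No cause of the low counts in day 40 w1118 heads was tested.

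In guts w was read at 0.554, 0.741 and 0 CPM in w1118, at 11.9, 7.89 and 8.6 CPM in orco2 and at 4.48, 4.76 and 2.98 CPM in per01. The 3 groups did not overlap, with orco2 highest, per01 between and w1118 lowest. Against w1118, w was 20.1 times as high in orco2 (interval 15.3 to 27.0, difference 4.42 ± 1.00, adjusted p = 0.0176) and 8.68 times as high in per01 (6.47 to 11.9, difference 3.21 ± 0.95, adjusted p = 0.0477). The per01 guts had 0.431 times the orco2 level by counts (0.379 to 0.489), but the difference of -1.21 ± 0.87 missed the threshold (adjusted p = 0.319). In guts w passed the count filter only through the orco2 and per01 libraries, where it was high. Its calls against w1118 are therefore not independent of the filter. The call in orco2 was lost without any 1 of the 3 orco2 libraries. The call in per01 was lost without any 1 of the 3 per01 libraries, without w1118 library 1 or 2, with no count filter and with the 2 groups alone.

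The 5 tested genes whose levels followed w most closely over the 8 head libraries, by Pearson correlation of log2 CPM, were Sdic1 (0.997), CG9287 (0.995), Ada2a (0.995), an insertion of the transposon copia (0.990) and Spn75F (0.989). Sdic1, a gene of a cluster of near-identical sperm dynein copies whose reads the counting could split, had mean levels of 0 CPM in day 3 w1118, 1.04 in day 3 orco2, 0.0867 in day 40 w1118 and 0.824 in day 40 orco2. Ada2a, which encodes a subunit of histone acetyltransferase complexes, had means of 5.16, 25.0, 7.56 and 21.0 CPM in the same order. Over the 9 gut libraries the closest genes were HIP (0.970), gb (0.970), MED18 (0.963), PSMG1 (0.962) and Targ3 (0.959), and none of them was among the closest in heads. MED18, a Mediator subunit, had means of 6.27 CPM in w1118, 14.1 in orco2 and 12.3 in per01 guts. These correlations describe libraries that fall into a w1118 set and a mutant set, so any gene with that split scores high. Like w, the genes Sdic1, CG9287 and Spn75F were near 0 CPM in w1118 heads and passed the count filter only through the orco2 heads.

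The partner transporters of White did not share its pattern. Scarlet (FBgn0003515, chromosome 3L, 16497651 to 16500460, plus strand) was read in heads at 15.4 and 16.2 CPM in day 3 w1118, 13.4 and 17.1 in day 3 orco2, 22.3 and 22.1 in day 40 w1118, and 18.3 and 16.6 in day 40 orco2. The day 40 w1118 heads were highest and the day 3 groups overlapped. No st difference in heads passed the threshold, and the largest was the one with age in w1118 (0.49 ± 0.15, adjusted p = 0.0694). The orco2 minus w1118 difference had an approximate 95% interval of -0.36 to 0.25 at day 3 and -0.65 to -0.05 at day 40.

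Brown (FBgn0000241, chromosome 2R, 23527805 to 23538499, minus strand) shares 456 bp, or 16.7%, of its exons with mi on the opposite strand, so its counts are uncertain to that extent. It was read at 35.1 and 33.6 CPM in day 3 w1118, 31.3 and 35.8 in day 3 orco2, 55.7 and 50.1 in day 40 w1118, and 34.5 and 37.8 in day 40 orco2. The day 40 w1118 heads stood above the other 3 groups, which lay close together. With age bw rose in w1118 (0.62 ± 0.12, adjusted p = 0.0131), and at day 40 it was lower in orco2 (-0.55 ± 0.12, adjusted p = 0.0254). In orco2 the difference with age was 0.11 ± 0.12. Both calls were lost without any 1 library of the groups compared.

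Of the ommochrome enzymes, v changed most. Vermilion (FBgn0003965, chromosome X, 10923972 to 10925631, plus strand) is tryptophan dioxygenase, the first enzyme of the pathway. It was read in heads at 10.01 and 11.2 CPM in day 3 w1118, 25.8 and 41.1 in day 3 orco2, 38.1 and 42.8 in day 40 w1118, and 110.5 and 91.5 in day 40 orco2. Both orco2 libraries were above both w1118 libraries at each age, and the day 40 libraries were above those of day 3 in each genotype. The orco2 minus w1118 difference was 1.66 ± 0.22 at day 3 (adjusted p = 0.00391) and 1.32 ± 0.21 at day 40 (adjusted p = 0.00796). With age v rose by 1.93 ± 0.22 in w1118 (adjusted p = 0.00169) and by 1.59 ± 0.22 in orco2 (adjusted p = 0.00245). The calls between genotypes were lost without w1118 library 1 at day 3 and without library 1 of either genotype at day 40, and the calls with age held without any 1 library.

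The level of v went with the summed level of fat body markers. The summed level of 12 fat body genes in heads was 1989 and 2515 CPM in day 3 w1118, 5916 and 8267 in day 3 orco2, 6712 and 7935 in day 40 w1118, and 16898 and 14170.2 in day 40 orco2. Single genes of the list were less uniform. In orco2 against w1118 heads 7 of 12 rose at day 3, and 4 rose and 1 fell at day 40. With age 10 rose in w1118 and 6 in orco2. Over all genes tested 4.85%, 8.06%, 8.56% and 12.8% rose in these comparisons, and 4.89% fell in that of day 40. The member v had 4.37 to 6.54 CPM per 1000 CPM of these markers in the 8 libraries, so the ratio spanned 1.5-fold where v itself spanned 11.0-fold. The ratio to the same markers spanned 2.82-fold for ry, which itself spanned 3.02-fold, and 24.8-fold for Pu, which was lowest in day 40 orco2 heads, the group with the highest markers. For se the ratio to the fat body markers spanned 50.7-fold. Within each of the 4 groups the library with more fat body marker RNA also had more v, ry and Pu. The same holds for a list of 3 retinal pigment and lens cell genes. With the photoreceptor genes it held in 3 of the 4 groups for v, ry and Pu, and in all 4 for pr. With 2 libraries per group and all 10 members compared, such an order can arise by chance. In bulk RNA, a different number of cells of a type and a different amount of RNA per cell cannot be told apart, and the part of fat body RNA in these results was not tested.

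**Figure D2:**
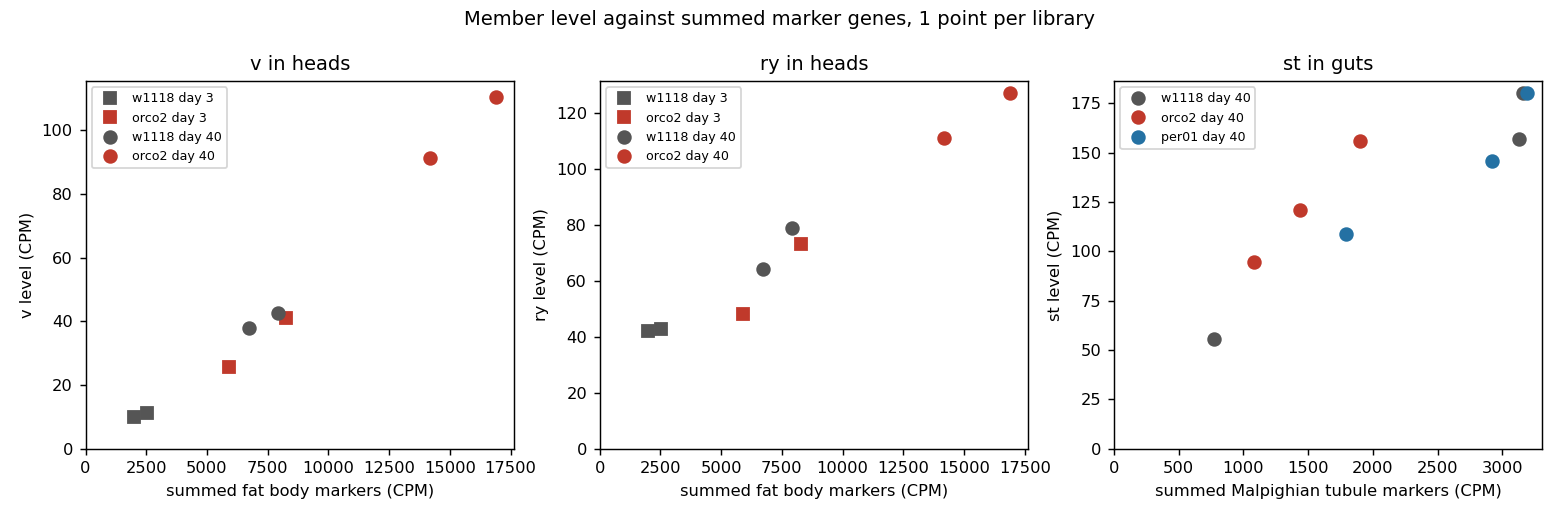
Levels of eye pigment genes against summed levels of marker genes in the same library (CPM, axes as labelled). Each point is a library, coloured by group. The points of v rise with the fat body markers from 10.01 CPM at 1989 to 110.5 CPM at 16898, and those of st in guts rise with the Malpighian tubule markers.

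Cardinal (FBgn0263986, chromosome 3R, 22694959 to 22697990, plus strand), a haem peroxidase of the last ommochrome steps, was read in heads at 6.37 and 8.4 CPM in day 3 w1118, 6.77 and 5.23 in day 3 orco2, 11.9 and 14.6 in day 40 w1118, and 6.75 and 9.6 in day 40 orco2. The day 40 w1118 heads were again highest, and the orco2 groups overlapped. No difference passed the threshold. The difference with age in w1118 was 0.84 ± 0.25 (adjusted p = 0.0575) and that of orco2 against w1118 at day 40 was -0.69 ± 0.25 (adjusted p = 0.109). The first of these passed under DESeq2, under limma-voom, with no count filter and with the 2 groups alone.

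Cinnabar (FBgn0000337, chromosome 2R, 7782797 to 7785067, minus strand), kynurenine monooxygenase, was close to unread. It had 0 to 4 counts per library and 17 in all over the 8 head libraries, and 0 to 4 per library and again 17 in all over the 9 gut libraries. The 3 per01 gut libraries had 0 counts, which allows a level of up to 0.0311 CPM at 3 counts over the group. An antisense RNA covers 1229 bp, or 68.7%, of cn exons, and was itself read at 26 counts over all heads and 104 over all guts. The setting for strand is not given in the sources used here, so reads of the 2 genes cannot be told apart, and no comparison of cn was made.

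Of the first pteridine enzymes, Pu fell with age in both genotypes and pr in w1118. Punch (FBgn0003162, chromosome 2R, 21175315 to 21182608, plus strand), GTP cyclohydrolase, was read at 479 and 509 CPM in day 3 w1118, 235 and 315 in day 3 orco2, 183 and 184 in day 40 w1118, and 168 and 138 in day 40 orco2. Day 3 w1118 heads were far above the rest, and the genotypes did not overlap at either age. In w1118 Pu fell with age by 1.43 ± 0.16 on the log2 scale (adjusted p = 0.00169), and in orco2 it fell by 0.85 ± 0.16 (adjusted p = 0.00903). At day 3 it was lower in orco2 (-0.85 ± 0.16, adjusted p = 0.0193), and at day 40 the difference was -0.26 ± 0.16 (adjusted p = 0.315). The call at day 3 was lost without either w1118 library and with the 2 groups alone, and the call with age in orco2 was lost without orco2 library 2 of day 40 and with the 2 groups alone.

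Purple (FBgn0003141, chromosome 2L, 20073719 to 20075458, minus strand), the synthase of pyruvoyl-tetrahydropterin that acts after Pu, was read at 96.3 and 103 CPM in day 3 w1118, 70.4 and 45.8 in day 3 orco2, 47.8 and 51.1 in day 40 w1118, and 51.2 and 43.6 in day 40 orco2. Only the day 3 w1118 heads stood above the other libraries. It fell with age in w1118 (-1.01 ± 0.19, adjusted p = 0.0123), a call lost without any 1 library of the 2 groups. In orco2 the difference with age was -0.29 ± 0.19 (adjusted p = 0.301). The difference between genotypes at day 3, -0.78 ± 0.19, missed the threshold in edgeR (adjusted p = 0.0518) and passed in DESeq2 and limma-voom.

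Sepia (FBgn0086348, chromosome 3L, 8520552 to 8521489, plus strand), an omega-class glutathione transferase that makes a drosopterin precursor, fell in all 4 head comparisons. It was read at 168 and 173 CPM in day 3 w1118, 64.1 and 82.1 in day 3 orco2, 60.6 and 58.4 in day 40 w1118, and 28.2 and 34.2 in day 40 orco2. The genotypes did not overlap at either age, nor did the ages in either genotype. The orco2 minus w1118 difference was -1.22 ± 0.15 at day 3 (adjusted p = 0.00257) and -0.93 ± 0.15 at day 40 (adjusted p = 0.00749). With age se fell by 1.52 ± 0.15 in w1118 (adjusted p = 0.00114) and by 1.23 ± 0.15 in orco2 (adjusted p = 0.00173). Its exons share 61 bp, or 7.4%, with GstO2 on the opposite strand. The call at day 40 between genotypes was lost without library 1 of either genotype.

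Rosy (FBgn0003308, chromosome 3R, 13032528 to 13038020, plus strand) is xanthine dehydrogenase, which acts on purines and also makes a minor eye pteridine. It was read in heads at 42.0 and 42.9 CPM in day 3 w1118, 48.2 and 73.0 in day 3 orco2, 64.0 and 78.7 in day 40 w1118, and 127 and 111 in day 40 orco2. In contrast to Pu, pr and se, its lowest group was day 3 w1118 and its highest day 40 orco2. With age ry rose by 0.75 ± 0.20 in w1118 (adjusted p = 0.0393) and by 0.97 ± 0.20 in orco2 (adjusted p = 0.0113). Between genotypes the difference was 0.51 ± 0.20 at day 3 (adjusted p = 0.18) and 0.74 ± 0.20 at day 40 (adjusted p = 0.047). The calls with age in w1118 and at day 40 were lost without any 1 library of the groups compared, and that in orco2 without orco2 library 1 of day 40.

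**Figure D3:**
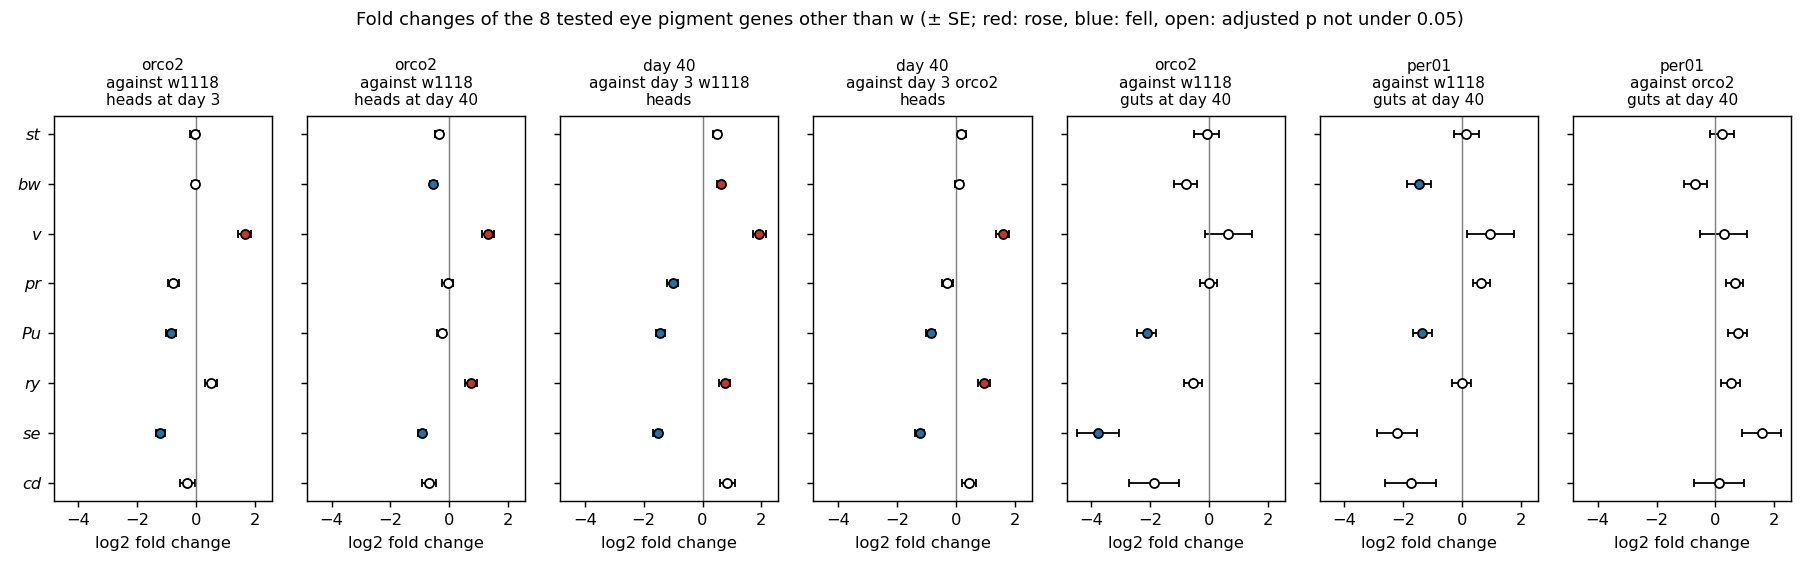
Log2 fold changes ± SE of the 8 tested members other than w in the 4 head and 3 gut comparisons, on one scale. Filled points passed an adjusted p of 0.05 (red rose, blue fell) and open points did not. In heads v lies between 1.32 and 1.93 and se between -1.52 and -0.93, and in orco2 guts se lies at -3.78.

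Whether the difference with age itself differed between the genotypes was tested as an interaction. No member of 9 was called, where 0% of all genes tested were called higher and 0.00817% lower. At an unadjusted p under 0.05 by edgeR there were 4 members, namely w (-4.65 ± 0.70, adjusted p = 0.179), bw (-0.52 ± 0.17), pr (0.72 ± 0.27) and Pu (0.58 ± 0.23). That cut was passed by 1215 of the 12243 genes tested. The SE for w understates its error, since the day 3 w1118 heads held 1 read of it. DESeq2 and limma-voom called 0 members, and edgeR with no count filter called 1, w. Calls seen with age in w1118 and not in orco2, as for bw and pr, are therefore not shown to differ between them.

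In guts, Pu fell in both mutants, se in orco2 and bw in per01, and w rose in both. In orco2 against w1118 guts w rose and Pu and se fell, where 11.5% of all genes tested rose and 15.1% fell, and in per01 w rose and bw and Pu fell, where 9.66% rose and 9.33% fell. The median difference over the members was -0.54 in orco2 and -0.02 in per01, against 0.06 and 0.00 over all genes. Both comparisons use the same w1118 libraries. As in heads, the rises of w over the w1118 strain check the labels and are not to be weighed against these shares. In per01 against orco2 guts edgeR called 0 members, where 3.33% of all genes rose and 2.07% fell. Pu and se had an unadjusted p under 0.05 by edgeR, as did 5221 of the 13453 genes tested. DESeq2 and limma-voom called 0 members as well. The median over the members was 0.29, against 0.08 over all genes.

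**Figure D4:**
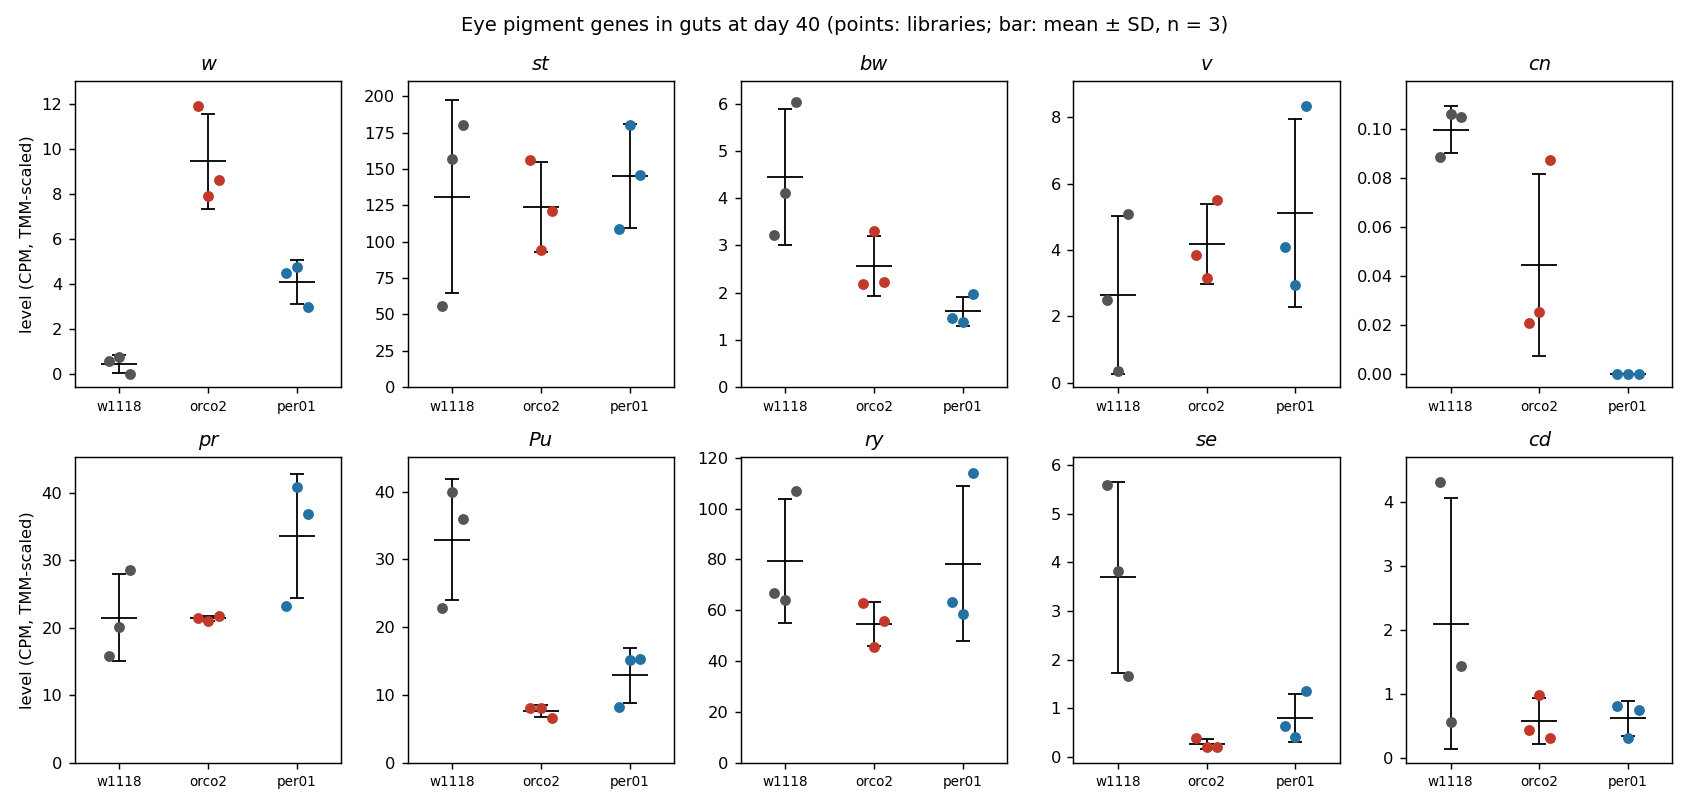
Levels of the 10 eye pigment genes in day 40 guts (CPM, linear axis, each panel with its own scale). Points are libraries and bars are the mean ± SD of 3 libraries per group. The Pu libraries of w1118 lie between 22.9 and 40.0 CPM, above those of orco2 and per01.

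Pu was read in guts at 22.9, 40.0 and 35.9 CPM (w1118), 8.09, 8.09 and 6.59 CPM (orco2), and 8.21, 15.1 and 15.3 CPM (per01). All w1118 libraries were above all mutant libraries, and the per01 libraries were above those of orco2. The orco2 guts differed from w1118 by -2.12 ± 0.33 (adjusted p = 0.00626), and the per01 guts by -1.35 ± 0.33 (adjusted p = 0.0256). The first call held without any 1 library, and the second was lost without per01 library 2, w1118 library 2 or w1118 library 3. The per01 minus orco2 difference was 0.76 ± 0.32 (adjusted p = 0.122).

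The gene se was read at 5.58, 3.81 and 1.67 CPM in w1118 guts, at 0.394, 0.203 and 0.196 in orco2, with 0.631, 0.405 and 1.35 in per01. The w1118 libraries were highest, spread widely, and did not overlap with either mutant. Against w1118 the difference was -3.78 ± 0.72 in orco2 (adjusted p = 0.0104), a call lost without orco2 library 2 or 3, and -2.21 ± 0.67 in per01 (adjusted p = 0.0514). With DESeq2 or its size factors the second also passed.

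For bw the gut levels were low, at 3.21, 4.1 and 6.03 CPM for w1118, 2.18, 3.3 and 2.23 for orco2, with 1.47, 1.37 and 1.96 for per01. The per01 libraries were below all others, and those of orco2 and w1118 overlapped. The per01 minus w1118 difference was -1.47 ± 0.41 (adjusted p = 0.0387), and that of orco2 was -0.79 ± 0.40 (adjusted p = 0.146). The call in per01 was lost without any 1 library other than w1118 library 1, under limma-voom, with no count filter and with the 2 groups alone.

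The transporter st was the most abundant member in guts. It was read at 55.8, 157 and 180.1 CPM in w1118, 156, 94.4 and 121 in orco2, with 109, 180.0 and 146 in per01, and the 3 groups overlapped. The difference from w1118 was -0.08 ± 0.42 in orco2 and 0.14 ± 0.42 in per01. The libraries differed within groups in the order of 10 Malpighian tubule marker genes, whose summed level was 769.9, 3127 and 3160.4 CPM in w1118, 1899, 1080.0 and 1439.8 in orco2, with 1791, 3188 and 2917 in per01. Per 1000 CPM of those markers st had 49.9 to 72.5 CPM in w1118 and per01 libraries and 82.4 to 87.4 in orco2. The part of tubule tissue in the gut results was not tested.

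The other gut members did not pass the threshold in any gut comparison. Levels of v were 2.5, 0.344 and 5.09 CPM in w1118, 3.86, 3.17 and 5.52 in orco2, with 4.09, 2.94 and 8.34 in per01, and those of cd were 4.32, 0.555 and 1.43 CPM, 0.436, 0.989 and 0.306, and 0.812, 0.304 and 0.745. Both overlapped between all groups. Levels of pr were 15.8, 20.1 and 28.5 CPM in w1118, 21.5, 21.0 and 21.7 in orco2, with 23.3, 40.8 and 36.8 in per01, and per01 stood above orco2 by 0.65 ± 0.29 (adjusted p = 0.137). Levels of ry were 66.8, 64.1 and 107 CPM in w1118, 62.7, 45.7 and 55.7 in orco2, with 63.1, 58.5 and 114 in per01. The orco2 libraries of ry were below those of w1118, with a difference of -0.54 ± 0.32 (adjusted p = 0.211), and those of per01 overlapped with both.

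Summed marker levels also differed between the gut groups. Male reproductive tract markers, 8 genes, summed to 194 to 594 CPM in w1118 guts, 4640.2 to 7502 in orco2 and 522 to 11213 in per01. Midgut enzyme markers, also 8 genes, summed to 8771 to 21641 CPM in w1118, 15305 to 29139.7 in orco2 and 91539 to 174248 in per01. Over all genes tested 15.1% fell in orco2 guts. The 6 muscle genes summed to 3047 to 4094 CPM in w1118, 1220.1 to 1519.6 in orco2 and 2001 to 2899 in per01, and 4 of 6 fell in orco2. The 6 neuron genes summed to 45.4 to 133 CPM, 29.0 to 32.9 and 24.4 to 47.1 in the same order, and 3 of 6 fell in orco2. The part of these RNAs in the gut values of w, bw, Pu and se was not tested. In heads the same 8 midgut enzyme genes summed to 15.1 to 677 CPM, and 13 photoreceptor genes to 65718 to 110579.8 CPM, with the lowest levels in day 3 w1118. Over all genes tested 7.23% fell with age in w1118 heads and 11.4% in orco2 heads, and 8.56% and 12.8% rose. The muscle genes summed to 4802 to 5297 CPM in day 3 heads and 1848 to 2285 in day 40 heads, and with age 4 of 6 fell in w1118 and 5 of 6 in orco2. The neuron genes summed to 3995 to 5733 CPM at day 3 and 2847 to 4355 at day 40, and 1 of 6 fell with age in w1118 and 5 of 6 in orco2. The 3 retinal pigment and lens cell genes summed to 328 to 552 CPM at day 3 and 241 to 292 at day 40, and 1 fell in w1118 and 2 in orco2, while 1 rose in each. The part of these RNAs in the head values of Pu, pr and se was not tested.

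Levels of different genes were compared per kb of exon. In day 3 w1118 heads the order began with Pu (229 ± 9.86 CPM per kb, SD, n = 2), se (207 ± 3.97) and pr (92.9 ± 4.5), and bw, ry, v and st followed between 12.5 and 7.36 CPM per kb. Neighbours Pu and se differed by more than the SD of either, and so did v and st, at 8.12 ± 0.634 and 7.36 ± 0.236. In day 40 orco2 heads v came first at 77.4 ± 10.3 CPM per kb, but Pu at 71.0 ± 9.97 was within its spread, and se stood below them at 37.8 ± 5.15. In guts st came first in every group, at 61.1 ± 30.8 CPM per kb in w1118, 57.8 ± 14.5 in orco2 and 67.4 ± 16.6 in per01 (SD, n = 3), where its means in head groups ran from 7.1 to 10.3. The gut order went on with pr and ry in all 3 groups. The head and gut tables were normalised apart, so these levels are set side by side and not tested.

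**Figure D5:**
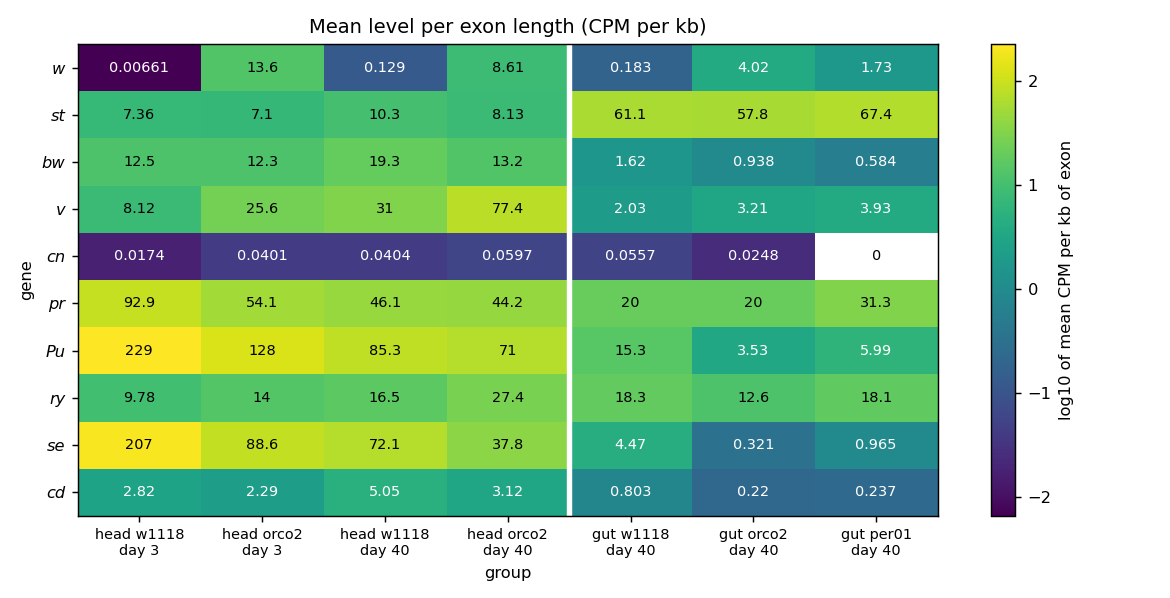
Mean level per kb of exon (CPM per kb) of the 10 members in the 7 groups, with the value printed in each cell and colour on a log scale. Pu and se lead in day 3 w1118 heads at 229 and 207, v leads in day 40 orco2 heads at 77.4, and st leads in the gut groups at 57.8 to 67.4.

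Other genes of the pathways were described by lists. Of 2 other ommochrome genes, the kynurenine aminotransferase gene Kyat was higher in orco2 than in w1118 heads at day 40 (1.00 ± 0.19, adjusted p = 0.0151) and rose with age in orco2 (1.28 ± 0.19, adjusted p = 0.00363). The eye colour gene kar fell with age in w1118 heads (-0.41 ± 0.11, adjusted p = 0.0424). Neither passed in guts.

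Of 14 other tested pteridine, purine and molybdenum cofactor genes, 2 were higher in orco2 heads at day 3 and 3 at day 40, and 2 rose with age in w1118 and 5 in orco2, and every call was in that direction. Over all genes tested 4.85%, 8.06%, 8.56% and 12.8% rose in these comparisons. The list medians were 0.17, 0.29, 0.24 and 0.45, against 0.01, -0.00, 0.04 and -0.01 over all genes. Hn, phenylalanine hydroxylase, which uses the cofactor that Pu and pr help to make, was read at 97.8 and 118 CPM in day 3 w1118, 188 and 305 in day 3 orco2, 212 and 300.2 in day 40 w1118, and 793 and 643 in day 40 orco2. It was called in all 4 head comparisons, at 1.19 ± 0.26, 1.49 ± 0.26, 1.25 ± 0.26 and 1.55 ± 0.26 in the order of the counts above. Hn thus went up in the comparisons in which Pu had negative differences. AOX1, an aldehyde oxidase with the same cofactor as the ry enzyme, was higher in orco2 at day 3 (1.36 ± 0.16, adjusted p = 0.00239) and rose with age in w1118 (1.52 ± 0.16, adjusted p = 0.00145). DhpD and Mocs1, which act in pterin metabolism and molybdenum cofactor synthesis, were higher in orco2 at day 40 by 0.72 ± 0.15 and 0.54 ± 0.13. In orco2 heads Mocs1 (0.77 ± 0.13), Pcd (0.99 ± 0.26) and mal (0.62 ± 0.16) rose with age too. In guts 1 of 15 was called, cl in per01 (0.99 ± 0.23, adjusted p = 0.0221), a gene of drosopterin synthesis, where 9.66% of all genes rose.

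Of 21 tested pigment granule trafficking genes, 1 rose and 1 fell in orco2 heads at day 40, and with age 1 rose and 2 fell in w1118 and 2 fell in orco2. The shares over all genes were 8.06% higher and 4.89% lower at day 40, 8.56% and 7.23% with age in w1118, and 11.4% lower with age in orco2. Rab32, a small GTPase of pigment granules, fell with age in w1118 (-0.57 ± 0.10, adjusted p = 0.00976) and in orco2 (-0.97 ± 0.10, adjusted p = 0.00123). Blos2 fell with age in w1118 (-0.99 ± 0.22) and HPS1 in orco2 (-0.54 ± 0.15). In orco2 guts 5 fell and 1 rose, where 15.1% of all genes fell and 11.5% rose, and the list median was -0.32 against 0.06 over all genes. Among them ca, the exchange factor of Rab32, was read at 75.7, 75.5 and 66.3 CPM in w1118 guts, 30.0, 29.8 and 30.0 in orco2, with 32.7, 24.6 and 40.0 in per01. It was lower in orco2 (-1.28 ± 0.22, adjusted p = 0.00756), and the per01 difference was -1.16 ± 0.22 (adjusted p = 0.0116). The genes red (-0.93 ± 0.21) and g, an AP-3 adaptor subunit (-0.73 ± 0.21), fell in orco2 guts, and or, another AP-3 subunit, rose (0.81 ± 0.23). Another of the 5 that fell, mah, passed the count filter only through the w1118 guts, where it was high. Its fall is therefore not independent of the filter.

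Of 11 other tested ABCG transporter genes, the subfamily of w, st and bw, 1 rose and 1 fell in orco2 heads at day 3, and 2 rose and 1 fell at day 40, where 4.85% of all genes rose and 2.43% fell at day 3 and 8.06% and 4.89% at day 40. With age 3 rose and 1 fell in w1118, where 8.56% of all genes rose and 7.23% fell, and 6 rose and 1 fell in orco2, where 12.8% rose and 11.4% fell. CG31689 was read in heads at 127 and 125 CPM in day 3 w1118, 160.2 and 179 in day 3 orco2, 189 and 213 in day 40 w1118, and 387 and 317 in day 40 orco2, and rose with age by 0.68 ± 0.13 and 1.05 ± 0.13. Atet fell with age in both genotypes, with differences of -0.62 ± 0.10 in w1118 and -0.82 ± 0.10 in orco2. In guts 1 rose and 2 fell in each mutant against w1118. Over all genes 11.5% rose and 15.1% fell in orco2, and 9.66% and 9.33% in per01. CG31689 was lower than in w1118, with differences of -1.94 ± 0.22 for orco2 and -1.66 ± 0.22 for per01. In orco2 guts CG31121 also fell (-1.70 ± 0.35), while CG4822 rose (1.31 ± 0.42, adjusted p = 0.0491 by edgeR).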

How the data were processed

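The deposited values are raw counts of reads for each gene, with heads and guts in separate tables. The authors made them with fastp, HISAT2 and featureCounts on dm6 and also used DESeq2, per the submitters' processing notes, and the annotation release and the settings for strand and multiply mapped reads are not given in the sources used here. The head table listed 23882 features, 5416 of them transposon insertions, and that of guts held 18354. Even numbers made up 60.3 to 75.5% of the counts between 1 and 20 in a library, so counting intervals may be too narrow. The 10 members, the wider gene lists and the tests were chosen with earlier results of these data known.

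Each tissue was fitted alone over all its libraries with R 4.3.3 and edgeR 4.0.16. Genes were kept by filterByExpr on the groups at a minimum count of 10, libraries were scaled by TMM, and glmQLFTest was run on glmQLFit models of the group means with no covariate. The Benjamini-Hochberg adjustment ran over 12243 genes in heads and 13453 in guts. The SE was derived from the F statistic, and approximate 95% intervals from the SE. For w in heads, with nearly no counts in w1118 at day 3, both are too narrow. The median dispersion over genes was 0.0282 for heads and 0.176 for guts, so gut differences carry larger errors. Levels per kb use the merged exon length in the BDGP6 annotation, whose coordinates are those of dm6. Named genes were the 10 members, up to 4 called genes with the smallest p per wider list, direction and comparison, the label check Orco, and the 5 genes closest to w in log2 CPM with a prior count of 2 per tissue. The gene per was planned as a check and not used, because a point mutation need not change its counts. It had 1415 to 3086 counts in w1118 guts, 364 to 535 in orco2 and 673 to 783 in per01. Orco had 0 to 17 counts in gut libraries, so neither gene checked the gut labels. Of the wider lists, KFase and CG3164 had identifiers outside the count tables, and po was not matched. The fits were tested on simulated data first. The alternatives tried were the Wald test of DESeq2 1.42.0, its size factors within edgeR, limma-voom 3.58.1, no filter on counts, the libraries of the 2 groups alone, a replicate block and each library left out in turn. Where a group of 2 lost a library, its remaining library was taken to vary as much as those of other groups.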

Additional observations from a re-analysis of the deposited data

Results flagged for a closer look

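The difference in w with age had opposite signs in the genotypes, at 3.99 in w1118 heads and -0.66 in orco2 heads, and every day 40 library lay on that side of the day 3 libraries. The interaction was -4.65 ± 0.70 with an adjusted p of 0.179 by edgeR. Its w1118 side rests on 1 read at day 3 and 21 at day 40, so the SE understates the error.

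The difference of orco2 from w1118 in ry was 0.74 in day 40 heads and -0.54 in day 40 guts, with no overlap of libraries in either tissue. The tables were normalised apart, so the difference between the tissues was not tested.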

How the results depend on the processing

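Of 800 recomputed differences of single members, 686 kept their sign and side of the threshold, 57 lost a call, 26 gained one and 31 changed sign, none of those with a call in the edgeR fit. The count of members called lay within 1.5 times its value under DESeq2 size factors, the DESeq2 Wald test and limma-voom in all comparisons. For per01 against w1118 guts it was 3 and became 1 with no count filter, with the libraries of the 2 groups alone and with a replicate block, since bw and w were lost each time, and for the interaction it went from 0 to 1 with no count filter. With 1 library left out, the counts ran from 2 to 6 for orco2 heads at day 3, 1 to 3 for orco2 heads at day 40 (5 with all), 4 to 4 for age in w1118 (7 with all), 3 to 5 for age in orco2, 0 to 2 for the interaction, 1 to 3 for orco2 guts, 0 to 2 for per01 against w1118 guts and 0 to 2 for per01 against orco2 guts. The cause of these changes was not tested.

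Signs changed for values near 0. In orco2 against w1118 guts the st difference was 0.04 under limma-voom and 0.06 with the replicate block, and that of pr was 0.03 with the DESeq2 Wald test and with its size factors, 0.07 under limma-voom, 0.02 with no count filter and 0.05 with the block. In per01 guts st was -0.06 against w1118 with the 2 groups alone, and cd was -0.05 against orco2 with the block. Over left-out libraries the range at day 3 was -0.26 to 0.11 for st and -0.15 to 0.06 for bw. The range for pr was -0.14 to 0.05 at day 40 and -0.53 to 0.06 with age in orco2, and the interaction ran from -0.63 to 0.10 for v and -0.04 to 0.61 for ry. In orco2 guts it was -0.44 to 0.19 for st and -0.17 to 0.19 for pr. In per01 against w1118 guts it was -0.22 to 0.54 for st and -0.38 to 0.31 for ry, and against orco2 -0.25 to 0.57 for v and -0.19 to 0.74 for cd.

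Same-numbered libraries of different groups did not deviate together, with correlations of -0.317 to 0.02 in heads and -0.402 to 0.151 in guts, so the numbers were not taken as pairs. With the replicate block the calls over all genes in per01 against orco2 guts went from 448 higher and 278 lower to 29 and 13, and the count of members changed only where given above. The larger gut dispersion gives gut differences larger errors than head differences.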

Other observations

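Among the pigment granule genes, mah, whose mutants have altered eye colour, had the widest swing. It was read in heads at 0.466 and 0.574 CPM in day 3 w1118, 0.996 and 0.224 in day 3 orco2, 8.22 and 7.01 in day 40 w1118, and 0.617 and 1.13 in day 40 orco2. Only the day 40 w1118 heads were high. The difference with age in w1118 was 3.86 ± 0.61 (adjusted p = 0.0059 by edgeR) and that of orco2 from w1118 at day 40 was -3.12 ± 0.59 (adjusted p = 0.0141). The w1118 gut libraries held 47, 104 and 41 mah counts, those of orco2 2, 2 and 4, and each per01 library 0. By edgeR mah fell in both mutants (adjusted p = 0.011 and 0.00741). In guts it passed the count filter only through the w1118 libraries, where it was high, so these calls are not independent of the filter.

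Uro, the urate oxidase gene, is known for its expression in the Malpighian tubules. It was read at 70.2, 851 and 641 CPM in w1118 guts, 141, 65.1 and 95.6 in orco2, and 370.3, 634 and 632 in per01. In heads it had 0 counts in all day 3 libraries and 0 to 6 per library at day 40. In w1118 gut library 1 Uro was far below the other w1118 libraries, and so was st, at 55.8 CPM against 157 and 180.1. In orco2 guts Uro was near the level of that library, while st was higher, at 94.4 to 156 CPM.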
